A study of Mus musculus with 45 samples.

Results

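The genes described here encode 10 acute phase proteins: the serum amyloid A genes Saa1, Saa2, Saa3 and Saa4, the orosomucoid genes Orm1 and Orm2, haptoglobin (Hp), lipocalin 2 (Lcn2), serum amyloid P (Apcs) and fibrinogen-like 1 (Fgl1). They were taken by gene symbol from the table of expression values, and all 10 were present among its 22080 genes, each with 1 probe set. Expression was measured with Affymetrix mouse gene arrays in liver, kidney and brain of male C57BL/6 mice sacrificed on day 43. The labels give an age of 7 weeks, which in the study's methods is that of the mice as purchased, not at sacrifice. The Control group ate the AIN-93 diet without treatment, and the HCD group ate it with 0.5% cholesterol. The 3 other groups ate the HCD with an addition: 1.0% of the Ganoderma lucidum extract Gl-1 (HCD+Gl-1), 1.0% of the extract Gl-2 (HCD+Gl-2), from mushrooms grown on substrate with 10 mM acetylsalicylic acid, or 0.03% simvastatin by weight (HCD+Sim). Each of the 15 tissue and diet groups had 3 arrays of pooled RNA, called A, B and C. By the study's methods pools A and B came from different mice, and C was both together. No group has arrays of single animals, and the p-values measure only the spread between arrays of pooled RNA. Of these, array C by the methods shares RNA with A and B.

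The acute phase response is a change in the proteins that the liver secretes when tissue is injured or infected. Interleukin-6, acting through STAT3, and interleukin-1, acting through NF-kappaB and C/EBP factors, raise transcription of the positive acute phase genes in hepatocytes, while negative acute phase genes such as albumin fall. In the mouse, serum amyloid A and serum amyloid P are main reactants, and their blood levels can move within hours.

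The 4 serum amyloid A genes lie side by side on chromosome 7 and Orm1 and Orm2 side by side on chromosome 4. On the RefSeq annotation of GRCm38.p6, Saa3 spans chr7:46711998-46719615, Saa4 chr7:46727992-46732603, Saa1 chr7:46740497-46743181 and Saa2 chr7:46751833-46754313. Orm1 spans chr4:63344556-63348163 and Orm2 chr4:63362449-63365877. Lcn2 is at chr2:32384637-32387739, Apcs at chr1:172893961-172895054, Hp at chr8:109575128-109579172 and Fgl1 at chr8:41191434-41217978. RefSeq lists Saa1 and Saa2 among each other's older names, and Saa1 with Saa2, and Orm1 with Orm2, are close copies, so the share of probe signal that belongs to each copy is uncertain.

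RefSeq promoters, 250 bases before to 50 after the gene start, were matched for 7 of the 10 genes (all but Orm1, Hp and Fgl1). For Saa1 and Saa3 the start used by the promoter window lies inside the gene span given above, not at its end. Shown are those of the 4 genes whose liver values spread most, Saa1, Saa2, Orm2 and Lcn2, and that of Saa4, their neighbour whose liver values hardly moved. Capitals mark matches to the C/EBP letters TTNNGNAA on either strand, and each line reads 5′ to 3′ along the gene's strand.
Saa1, chr7:46742931-46743230, minus strand: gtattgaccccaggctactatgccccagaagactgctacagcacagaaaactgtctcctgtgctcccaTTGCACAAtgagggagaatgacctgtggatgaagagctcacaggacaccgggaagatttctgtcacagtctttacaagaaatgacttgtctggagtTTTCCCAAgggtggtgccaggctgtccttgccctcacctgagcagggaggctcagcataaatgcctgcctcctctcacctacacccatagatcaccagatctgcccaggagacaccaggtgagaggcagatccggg
Saa2, chr7:46751583-46751882, plus strand: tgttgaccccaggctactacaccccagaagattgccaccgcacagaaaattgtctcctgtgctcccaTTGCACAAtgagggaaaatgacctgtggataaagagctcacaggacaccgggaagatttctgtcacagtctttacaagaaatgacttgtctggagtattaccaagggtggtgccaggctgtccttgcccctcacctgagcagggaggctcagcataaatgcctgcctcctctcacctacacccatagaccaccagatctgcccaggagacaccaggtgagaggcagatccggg
Orm2, chr4:63362199-63362498, plus strand: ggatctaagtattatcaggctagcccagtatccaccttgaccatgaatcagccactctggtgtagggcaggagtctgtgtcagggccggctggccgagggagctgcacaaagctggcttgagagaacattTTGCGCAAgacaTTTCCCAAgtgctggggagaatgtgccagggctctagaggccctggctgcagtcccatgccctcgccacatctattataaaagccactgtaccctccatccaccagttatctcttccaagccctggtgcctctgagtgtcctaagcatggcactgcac
Lcn2, chr2:32387690-32387989, minus strand: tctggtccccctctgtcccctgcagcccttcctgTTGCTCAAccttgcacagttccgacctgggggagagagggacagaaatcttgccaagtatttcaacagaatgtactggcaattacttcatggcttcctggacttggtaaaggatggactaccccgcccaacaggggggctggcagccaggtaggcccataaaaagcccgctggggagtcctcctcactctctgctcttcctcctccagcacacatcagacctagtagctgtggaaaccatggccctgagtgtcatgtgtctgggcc
Saa4, chr7:46732554-46732853, minus strand: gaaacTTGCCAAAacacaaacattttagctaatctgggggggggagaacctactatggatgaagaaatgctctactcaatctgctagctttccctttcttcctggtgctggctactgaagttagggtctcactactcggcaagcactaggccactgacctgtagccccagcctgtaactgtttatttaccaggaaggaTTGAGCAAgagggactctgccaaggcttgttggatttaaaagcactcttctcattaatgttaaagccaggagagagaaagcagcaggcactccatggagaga
The Saa1 and Saa2 promoters were 95.3% identical in a global alignment, and the other pairs among the 7 genes lay between 43.3 and 52.5%. C/EBP letters stood in 6 of the 7 promoters, in all but that of Apcs, and in 40.7% of the 32851 promoters in the RefSeq table. Counted from the start used by each window, the matches began 182 and 86 bases upstream in Saa1, both inside its gene span. They began 183 bases upstream in Saa2, 120 and 108 in Orm2, 216 in Lcn2, and 245 and 52 in Saa4. The STAT letters TTCNNNGAA (8.30% of all promoters) and the letters CTGGGAA of the type II IL-6 element (11.1%) stood only in the Apcs promoter among the 7, and the NF-kappaB consensus (8.46%) in none of them. These are descriptions of letters in a window, and the flat Saa4 held as many C/EBP matches as Saa1.

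The arrays matched their tissue labels. The mean log2 value of 8 hepatocyte markers was 12.7 to 12.8 in liver arrays and 6.43 to 8.76 in kidney and brain arrays, and those of 8 kidney and 8 brain markers were highest in their own tissue. Arrays of a group correlated at 0.985 to 0.997. The array medians lay between 6.76 and 6.92.

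Before any comparison, array C of the treated livers has to be described, because it stood apart in these genes. An exact mix of pools A and B would lie between arrays A and B, but most genes did not meet this in any group: array C lay between them for 20.4 to 35.5% of all genes in the 15 groups, with a median distance from an equal mix of 0.08 to 0.14 log2 units. Distances over 1 unit were rare, and these are counted here. In liver HCD+Gl-1, array C lay over 1 log2 unit below both for 5 of the 10 genes (Saa1, Saa2, Saa3, Orm2 and Lcn2), against 0.0362% of all genes over 1 unit outside on either side. In liver HCD+Gl-2 this held for 4 (Saa1, Saa2, Orm2 and Lcn2), against 0.0317%. In liver HCD+Sim it held for 7 (Saa1, Saa2, Orm1, Orm2, Lcn2, Apcs and Fgl1), against 0.149%. These genes thus made up 16 of the 48 such values. In Control and HCD liver and in all kidney groups, array C lay that far outside for 0 of the 10. In brain it did so for Lcn2 in HCD+Sim. By smaller margins, array C was also the lowest for Lcn2 in every kidney group and every other brain group, Control and HCD included. Lcn2 read 8.36, 8.30 and 8.08 in arrays A, B and C of kidney Control and 7.07, 7.20 and 6.11 in brain Control. Array C of brain Control lay over 1 unit outside for the most genes, 110, with 0 of the 10 among them.

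An equal mix computed from arrays A and B of liver HCD+Sim gave 11.72 for Saa1, and array C read 6.71, 32.2-fold lower. The ranks of that gap, by size among all 22080 genes, were 1 for Saa1, 2 for Saa2, 3 for Orm2 and 5 for Lcn2. In HCD+Gl-1 and in HCD+Gl-2 the 4 widest gaps of all genes were those of Saa2, Saa1, Orm2 and Lcn2, in that order. Saa2 fell short of the mix by 13.6-fold in HCD+Gl-1 and by 25.2-fold in HCD+Gl-2. The 12 pancreas acinar markers also had array C lowest in liver HCD+Sim, with mean log2 values of 7.48 and 8.01 in arrays A and B and 6.31 in C. The labels call array C only pool C, and whether it holds the RNA of A and B was not tested. Calls in treated livers are therefore given with all arrays and with arrays A and B only.

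**Figure D1:**
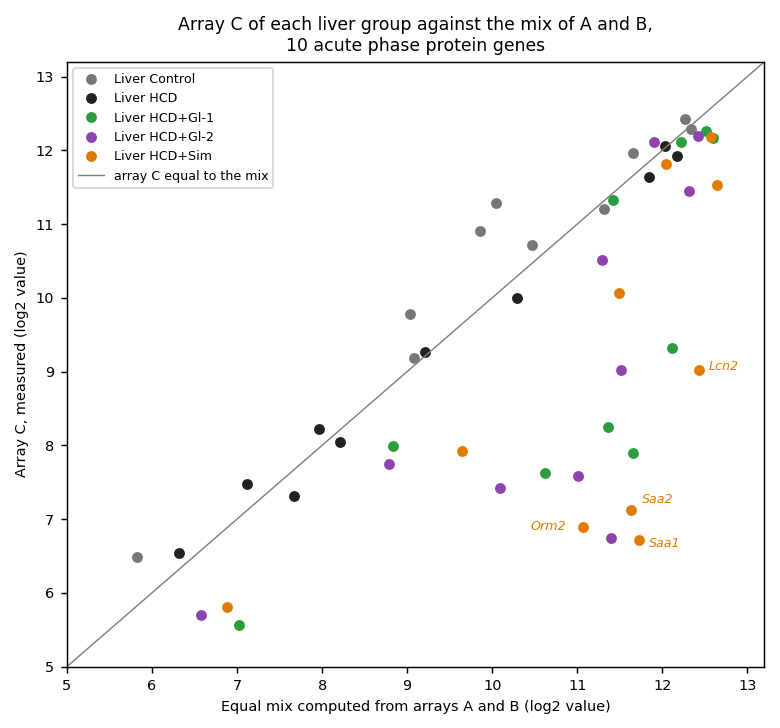
The measured log2 value of array C (vertical axis) is plotted against an equal mix computed from arrays A and B of the same group (horizontal axis) for the 10 genes in the 5 liver groups, with a line where both are equal. Control and HCD points lie near or above the line, while Saa1, Saa2, Orm2 and Lcn2 of the 3 treated groups lie 2.49 to 5.01 log2 units below it.

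The inducible serum amyloid A genes, Saa1 and Saa2, encode apolipoproteins of high density lipoprotein that hepatocytes secrete in the acute phase. Saa1 had log2 values of 10.69, 8.87 and 11.28 in Control arrays A, B and C, and of 8.08, 7.83 and 8.21 in HCD. It had 11.03, 11.63 and 8.25 in HCD+Gl-1, 10.67, 11.29 and 7.59 in HCD+Gl-2, and 11.42, 11.97 and 6.71 in HCD+Sim. All HCD arrays were low, arrays A and B of each treated group were high, and array C of each treated group was near the HCD level or below it.

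Saa2 had the same pattern of high and low arrays, but array A was above B in HCD+Sim. Its values were 10.57, 8.40 and 10.91 in Control and 7.29, 6.91 and 7.48 in HCD. They were 11.28, 11.96 and 7.89 in HCD+Gl-1, 10.97, 11.72 and 6.74 in HCD+Gl-2, and 11.95, 11.24 and 7.12 in HCD+Sim. In Control, array B stood below A and C in both genes, by 1.82 log2 units against A in Saa1 and by 2.17 in Saa2, so the Control group was itself spread over arrays.

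Saa3, which in the mouse is made largely by macrophages, fat and epithelia, was dim in liver, between 5.57 and 7.06. Its 3 lowest values were array C of the treated groups, at 5.57 under Gl-1, 5.70 under Gl-2 and 5.81 under simvastatin, and Control arrays A and B followed at 5.81 and 5.82. Saa4, the constitutive member of the family, ranged over 0.72 log2 units in all 15 liver arrays, from 11.51 to 12.23. Saa1 ranged over 5.26 units and Saa2 over 5.22 in the same arrays.

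Orm2 encodes an orosomucoid, a plasma glycoprotein that binds lipophilic compounds. Its liver values were 9.17, 8.87 and 9.78 in Control and 7.72, 7.62 and 7.32 in HCD. They were 10.12, 10.98 and 7.62 in HCD+Gl-1, 10.09, 10.10 and 7.42 in HCD+Gl-2, and 10.83, 11.27 and 6.90 in HCD+Sim. Arrays A and B of the treated groups thus lay above every Control array, and the 3 arrays C lay within or below the HCD range. Orm1, its neighbour, was bright in every liver array, from 11.45 to 12.73, and its 2 lowest values were array C of HCD+Gl-2 (11.45) and of HCD+Sim (11.53).

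Lcn2 binds the siderophores with which bacteria take up iron, and Hp binds free haemoglobin. Lcn2 had 10.60, 10.33 and 10.71 in Control liver and 9.34, 9.07 and 9.26 in HCD. It had 11.87, 12.31 and 9.32 in HCD+Gl-1, 11.14, 11.81 and 9.02 in HCD+Gl-2, and 12.23, 12.60 and 9.02 in HCD+Sim. The HCD arrays lay below all Control arrays, and arrays A and B of each treated group above them. Hp stayed between 11.97 and 12.64, with all HCD arrays (11.97 to 12.08) below the 12 others, whose lowest was 12.18.

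Apcs, the mouse pentraxin of the acute phase, had 8.94, 9.21 and 9.18 in Control liver and 8.32, 8.10 and 8.04 in HCD. It had 8.66, 8.99 and 8.00 in HCD+Gl-1, 8.62, 8.93 and 7.75 in HCD+Gl-2, and 9.08, 10.04 and 7.92 in HCD+Sim. Control and HCD arrays did not overlap, and array C was the lowest of each treated group.

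Fgl1 encodes a secreted fibrinogen-like protein of hepatocytes that interleukin-6 induces. Its values were 11.35, 11.29 and 11.20 in Control and 10.19, 10.38 and 10.00 in HCD. They were 11.36, 11.48 and 11.33 in HCD+Gl-1, 11.17, 11.41 and 10.51 in HCD+Gl-2, and 11.36, 11.61 and 10.07 in HCD+Sim. It was the one among the wide-ranging genes in which array C of HCD+Gl-1 stood with arrays A and B.

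**Figure D2:**
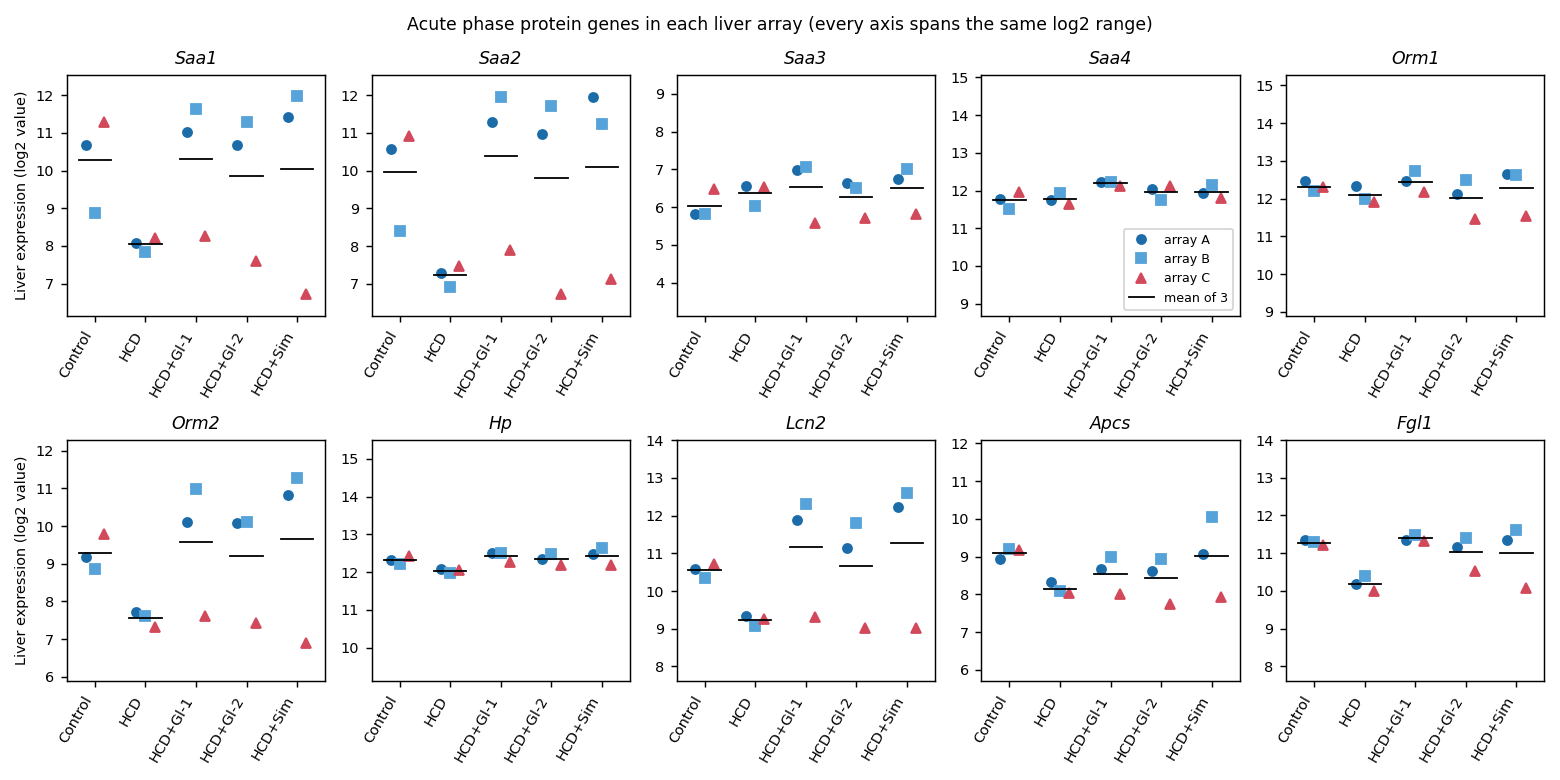
Each panel shows the log2 value of a gene (vertical axis, every panel spanning the same range) in arrays A (circles), B (squares) and C (triangles) of the 5 liver groups, with the mean of the 3 arrays as a line. In the treated groups Saa1, Saa2, Orm2 and Lcn2 have arrays A and B high and array C near the HCD arrays, while Saa4 and Hp stay within 0.72 and 0.67 log2 units over all 15 arrays.

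The first comparison asked which of these genes the high-cholesterol diet changed. In liver, 7 of the 10 had all HCD arrays below all Control arrays (Saa1, Saa2, Orm2, Hp, Lcn2, Apcs and Fgl1), against 8.77% of all genes. The median log2 difference of the 10 genes was -1.02, beside -0.01 for all genes. Fgl1 was the gene that passed the test, lower by 2.13-fold (log2 difference -1.09 ± 0.22 SE, adjusted p = 0.00291). DE here means an absolute log2 difference over 0.7 with an adjusted p of at most 0.05 in limma, and 0.245% of all genes were DE. In bulk liver, fewer cells of a type and less RNA per cell cannot be told apart.

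Saa2, Saa1, Orm2 and Lcn2 had larger differences with wider errors. The log2 difference was -2.73 ± 0.86 (SE) for Saa2 (adjusted p = 0.128), -2.24 ± 0.79 for Saa1 (adjusted p = 0.212) and -1.72 ± 0.65 for Orm2 (adjusted p = 0.252). For Lcn2 it was -1.32 ± 0.61 (adjusted p = 0.429). Apcs, at -0.96 ± 0.27 (adjusted p = 0.0721), and Hp, at -0.28 ± 0.11 (adjusted p = 0.252), had smaller differences than Fgl1. Arrays C of the treated livers enter the shared spread of this fit, although they belong to neither group.

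From arrays A and B of every group, 6 of the 10 genes were DE, all lower in HCD (Saa1, Saa2, Orm2, Lcn2, Apcs and Fgl1), beside 0.444% of all genes. Saa2 was then 5.21-fold lower (log2 difference -2.38 ± 0.40 SE, adjusted p = 0.00152), Lcn2 2.40-fold (adjusted p = 0.000898) and Orm2 2.55-fold (adjusted p = 0.000199). When liver arrays alone were fitted, none of the 10 passed with 3 arrays a group, and Fgl1 had an adjusted p of 0.183.

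The next comparisons asked whether the extracts and simvastatin changed these genes in mice on the HCD. With all arrays, HCD+Gl-1 had 2 of the 10 DE, both higher than in HCD, beside 0.163% of all genes. These were Saa2, 8.88-fold (log2 difference 3.15 ± 0.86 SE, adjusted p = 0.0407), and Fgl1, with means of 11.39 against 10.19 (SE of the difference 0.22, adjusted p = 0.00106). The call of Saa2 was lost when any single array but C of HCD+Gl-1 was left out (highest adjusted p = 0.173), and that of Fgl1 was not. In HCD+Gl-2 Fgl1 was DE at 1.79-fold (0.84 ± 0.22, adjusted p = 0.0291), 1 of 10 beside 0.303%. In HCD+Sim it was DE at 1.77-fold (0.82 ± 0.22, adjusted p = 0.0469), 1 of 10 beside 0.258%, with array C of HCD+Sim inside the HCD range. Leaving out array A or B of HCD+Gl-2, or A or C of HCD, ended the Gl-2 call (highest adjusted p = 0.173), and leaving out any HCD or HCD+Sim array but C of HCD+Sim ended the simvastatin call (highest adjusted p = 0.315). Fitted on liver arrays alone, 0 of the 10 were DE in each of these comparisons.

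All 3 arrays of the treated group lay above all HCD arrays for 5 genes under Gl-1 (Saa1, Saa2, Saa4, Hp and Fgl1), against 5.88% of all genes. Under Gl-2 they did so for 2 (Hp and Fgl1), against 7.27%, and under simvastatin for 1 (Hp), against 9.26%. The median log2 difference of the 10 genes was 0.81 under Gl-1, 0.57 under Gl-2 and 0.84 under simvastatin, while that of all genes lay between -0.01 and 0.03. From arrays A and B it was 0.93, 0.79 and 1.28. Hp missed the fold threshold in each, at 1.31-fold under Gl-1 (adjusted p = 0.0409), 1.23-fold under Gl-2 (adjusted p = 0.165) and 1.32-fold under simvastatin (adjusted p = 0.0513).

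Without array C of any group, the same comparisons gave more calls. Under Gl-1 6 of the 10 were DE and higher (Saa1, Saa2, Saa3, Orm2, Lcn2 and Fgl1), beside 0.231% of all genes. Under Gl-2 5 were higher (Saa1, Saa2, Orm2, Lcn2 and Fgl1), beside 0.19%, and under simvastatin 6 (Saa1, Saa2, Orm2, Lcn2, Apcs and Fgl1), beside 0.371%. The Saa2 difference was 22.9-fold under Gl-1 (log2 difference 4.52 ± 0.40 SE, adjusted p = 8.14e-07), 18.9-fold under Gl-2 (4.24 ± 0.40, adjusted p = 1.85e-06) and 22.5-fold under simvastatin (4.49 ± 0.40, adjusted p = 2.53e-07).

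Orm2 and Lcn2 gave the smallest p-values in those fits. Orm2 was higher by 7.36-fold under Gl-1 (adjusted p = 5.15e-09), 5.36-fold under Gl-2 (adjusted p = 9.07e-08) and 10.4-fold under simvastatin (adjusted p = 1e-10). Lcn2 was higher by 7.41-fold, 4.82-fold and 9.27-fold in the same order (adjusted p = 1.08e-08, 7.22e-07 and 6.61e-10). Saa1 rose by 10.4-fold, 8.14-fold and 13.4-fold. Saa4 stayed within 0.39 log2 units in each and was not DE. These values rest on 2 arrays a group, and the 3 treatments share the HCD arrays.

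**Figure D3:**
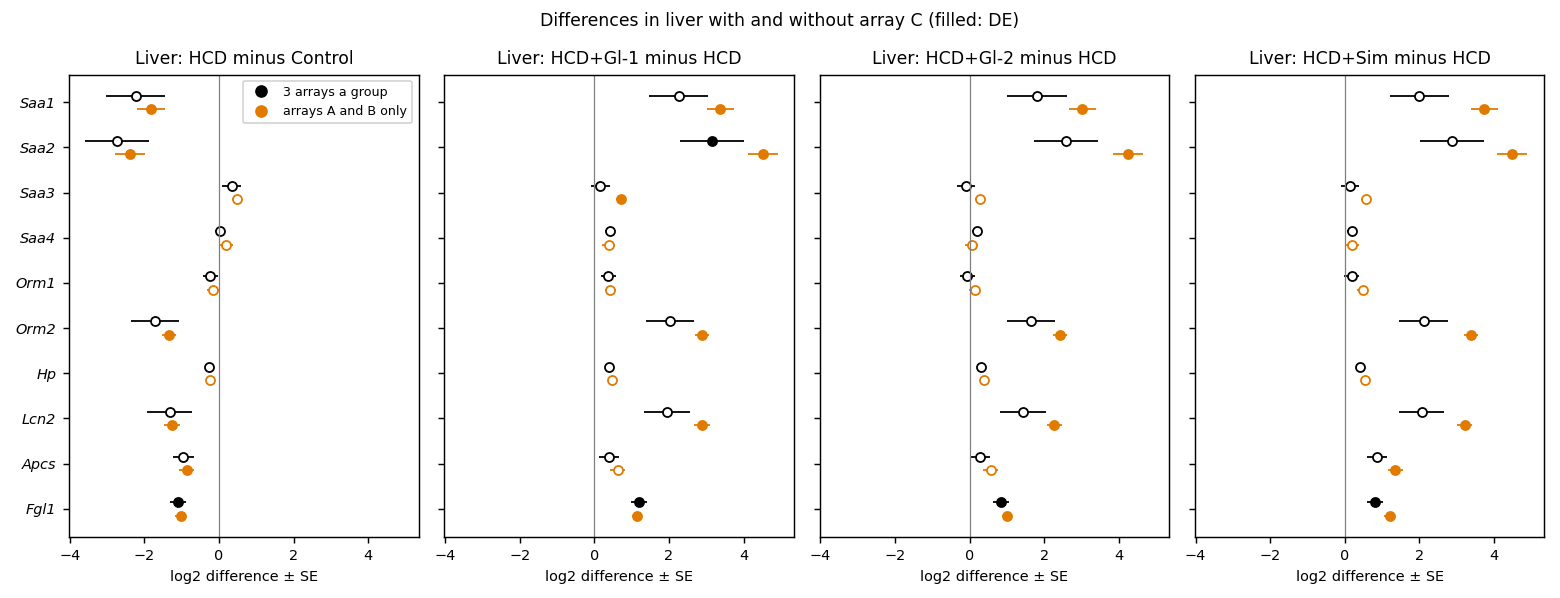
The log2 difference ± SE (horizontal axis) of each gene (vertical axis) is shown for the 4 liver comparisons, from all 3 arrays a group (black) and from arrays A and B only (orange), with filled points for DE genes. The orange points of Saa1, Saa2, Orm2 and Lcn2 have shorter error bars, and lie farther from 0 than the black points in the treatment comparisons; Saa2 under simvastatin moves from 2.88 to 4.49.

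Against Control, 0 of the 10 genes were DE under Gl-1, under Gl-2 or under simvastatin by limma with all arrays, beside 0.322, 0.584 and 0.358% of all genes, and 2, 1 and 0 had an unadjusted p under 0.05. From arrays A and B, 5 were higher than in Control under Gl-1 (Saa1, Saa2, Saa3, Orm2 and Lcn2), beside 0.525% of all genes. Under Gl-2 4 were higher (Saa2, Saa3, Orm2 and Lcn2), beside 0.657%, and under simvastatin 5 (Saa1, Saa2, Saa3, Orm2 and Lcn2), beside 0.521%. Fgl1 was in none of these lists, since arrays A and B of the treated groups (11.17 to 11.61) were at about the Control level (11.29 and 11.35). With array C left in, Saa1 under simvastatin had a log2 difference from Control of the opposite sign, -0.24.

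The 3 treatments were also set against each other in liver. For Gl-2 against Gl-1, Gl-1 against simvastatin and Gl-2 against simvastatin, 0 of the 10 genes were DE by limma with all arrays, beside 0.172, 0.249 and 0.285% of all genes, and 1, 0 and 1 had an unadjusted p under 0.05. The counts from arrays A and B were 0, 0 and 2, beside 0.0226, 0.312 and 0.312%. The 2 were Orm2 and Lcn2, lower under Gl-2 than under simvastatin by 1.94-fold (log2 difference -0.96 ± 0.19 SE, adjusted p = 0.0125) and by 1.92-fold (-0.94 ± 0.20, adjusted p = 0.0239).

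Other genes of the acute phase were read from lists. Of 33 further positive acute phase genes, 2 were DE in liver HCD against Control, both lower, and the median of the list was -0.12. These were the metallothioneins Mt1 (log2 difference -0.79, adjusted p = 5.98e-06) and Mt2 (-1.02, adjusted p = 0.000185), which bind zinc and copper. Both were higher again under Gl-1 (0.83 and 1.19), Gl-2 (1.47 and 2.11) and simvastatin (1.21 and 1.72), and in each of these their array C stood with arrays A and B: Mt2 read 11.50, 11.65 and 11.60 in HCD+Sim and 9.93, 9.27 and 10.41 in HCD.

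Beside the metallothioneins, the positive list had Steap4, a metalloreductase, higher under Gl-1 (log2 difference 0.81, adjusted p = 0.000281). Hamp2, a relative of the iron hormone hepcidin, was lower under Gl-1 (-0.75, adjusted p = 0.0106), Gl-2 (-1.12, adjusted p = 9.92e-05) and simvastatin (-1.04, adjusted p = 0.00046). Hamp itself had differences of -0.07, -0.15 and -0.21 and was not DE. Orm3, the remaining orosomucoid gene, was higher in HCD+Gl-1 than in Control (1.60, adjusted p = 0.00856, and 2.19 from arrays A and B), with 7.91, 8.44 and 6.94 against 6.04, 5.92 and 6.52. Its HCD arrays, at 7.80, 7.04 and 7.30, lay above the Control arrays, opposite to Orm2 (log2 difference 1.22, adjusted p = 0.0978, and 1.44 from arrays A and B, adjusted p = 0.000343). From arrays A and B the calls of Mt1, Mt2 and Steap4 were also made, and that of Hamp2 under Gl-2 (adjusted p = 0.00369) and simvastatin (adjusted p = 0.0477), while Hamp2 missed it for Gl-1 (adjusted p = 0.0673). Crp, which is a minor reactant in the mouse, differed by at most 0.12 in the 4 comparisons of diet and treatment and was not DE.

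Of 16 negative acute phase genes, 0 were DE in liver for HCD against Control and for each treatment against HCD, with all arrays and with arrays A and B, and the list medians lay between -0.01 and 0.03. Alb differed by at most 0.05. The list mean per array ranged from 12.65 to 12.72 over the 15 liver arrays. The array C pattern of the 10 genes was thus not seen in this list. The list of 33 positive genes had array C lowest in each treated group. Its means in arrays A, B and C were 11.24, 11.27 and 11.20 under Gl-1. They were 11.22, 11.24 and 11.18 under Gl-2 and 11.27, 11.33 and 11.07 under simvastatin, against 11.01 to 11.11 in HCD.

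Of 26 genes of interleukin-6 and interleukin-1 signalling, 0 were DE in liver HCD against Control, 1 under Gl-1, 2 under Gl-2 and 0 under simvastatin. Il1r1, the receptor of interleukin-1, was higher under Gl-1 (log2 difference 0.77, adjusted p = 2.23e-05). The cytokine genes Il1a (0.74, adjusted p = 0.00241) and Il1b (0.84, adjusted p = 0.000457) were higher under Gl-2, where Il1b read 6.67, 6.49 and 7.07 against 5.86, 6.07 and 5.77 in HCD. In the same group 9 of 15 immediate early genes were DE and higher, with list means of 8.58, 7.45 and 8.95 in arrays A, B and C, so that A and C were high there and B was not. From arrays A and B none of the 26 was DE in these comparisons: Il1r1 under Gl-1 fell just short of the fold threshold (0.67, adjusted p = 0.00562), and under Gl-2 Il1a had 0.42 (adjusted p = 0.201) and Il1b 0.61 (adjusted p = 0.0569), with 2 immediate early genes DE. The part of that list in the Il1a and Il1b differences was not tested.

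Stat3, the factor through which interleukin-6 acts, was lower in HCD than in Control by less than the fold threshold (log2 difference -0.37 ± 0.07 SE, adjusted p = 0.00141). It read 9.86, 9.79 and 9.92 in Control, 9.46, 9.48 and 9.51 in HCD and 9.86, 9.78 and 9.89 in HCD+Gl-1 (0.36 ± 0.07 against HCD, adjusted p = 0.00242, and 0.35 from arrays A and B, adjusted p = 0.0334). Under Gl-2 its arrays (9.52, 9.42 and 9.51) were at the HCD level (adjusted p = 0.996), and under simvastatin they were between (0.22, adjusted p = 0.122). Array C of HCD+Gl-1 was not low in Stat3. Socs3, a feedback inhibitor of this pathway, had -0.22 in HCD and 0.36, 0.38 and 0.34 under the treatments and was not DE, and Il6 differed by at most 0.21.

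Markers of other cells were read beside these values. Of the 9 measured markers of macrophages and Kupffer cells, 0 had a log2 difference above 0 in HCD against Control, and 9, 9 and 8 had one above 0 under Gl-1, Gl-2 and simvastatin, with 0 DE in each, also from arrays A and B. The share of all genes above 0 was 45.8% for HCD and 46.3, 52.0 and 62.2% under the treatments. The mean log2 value of these markers was 8.32, 8.42 and 8.24 in arrays A, B and C of Control, and 8.05 to 8.06 in HCD. In the same order it was 8.30, 8.26 and 8.07 in HCD+Gl-1 and 8.28, 8.28 and 8.08 in HCD+Gl-2. It was 8.32, 8.45 and 8.15 in HCD+Sim. Array C was thus the lowest of each treated group here too, but also of Control. The 11 neutrophil markers had 0 DE genes in the 4 comparisons and means of 5.25 to 5.57 in all liver arrays. These means lay below every array median, and whether such dim values are above background was not analysed. In HCD+Sim 10 of the 12 acinar markers were DE and higher, and 11 from arrays A and B. The part of these cell types in the acute phase values was not tested.

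**Figure D4:**
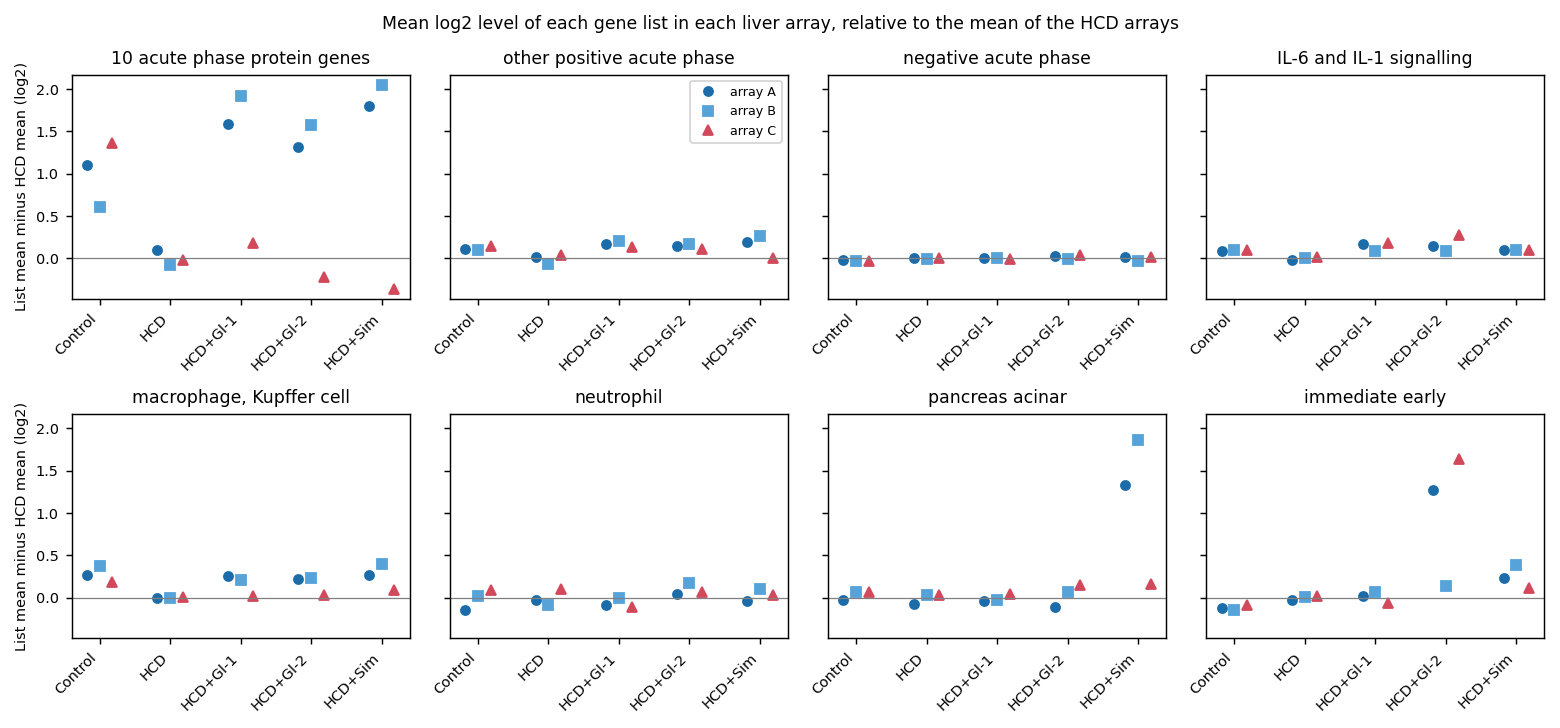
Each panel shows the mean log2 value of a gene list in arrays A (circles), B (squares) and C (triangles) of the 5 liver groups, minus the mean of the HCD arrays (vertical axis). The 10 acute phase protein genes have arrays A and B of the treated groups 1.31 to 2.05 above the HCD mean and array C between -0.36 and 0.19, while the negative acute phase list stays near 0.

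All 10 genes were higher in liver than in the other tissues measured. On the Control diet each was DE and higher in liver than in kidney, beside 16.8% of all genes DE in that comparison, and than in brain, beside 32.7%. The measured liver excess over kidney was 4.92-fold for Lcn2. For the other genes the kidney Control means lay between 3.35 (Saa1) and 5.97 (Hp), below every array median, and whether such dim values are above background was not analysed here, so no fold is given for them. Their liver Control means lay between 6.04 (Saa3) and 12.32 (Orm1 and Hp), and that of Saa3 was also below every array median. Between kidney and brain Lcn2 was the DE gene, higher in kidney by 2.74-fold (log2 difference 1.46, adjusted p = 0.0376), 1 of 10 beside 30% of all genes. That call was lost without array C of brain Control (adjusted p = 0.164) and without any one of the kidney Control arrays (adjusted p = 0.0547 to 0.083). Over all diets, the lowest liver array of each gene lay above its highest kidney and brain array, most narrowly for Lcn2 (9.02 in liver, 8.84 in kidney).

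In kidney no difference between diets passed the test. For HCD against Control and Gl-1, Gl-2 and simvastatin against HCD, 0 of 10 were DE by limma, beside 0.0408, 0.131, 0.335 and 0.14% of all genes, and none had an unadjusted p under 0.05 with all arrays. Log2 differences lay between -0.32 and 0.49. Saa1 stayed between 3.18 and 3.86 in kidney and Saa2 between 3.79 and 4.34. The highest kidney Lcn2 values were 8.61 and 8.84, in arrays A and B of HCD+Gl-1, whose array C read 8.00. In every kidney group, Control and HCD included, array C was the lowest for Lcn2.

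In brain 0 of 10 were DE by limma in the same comparisons, beside 0.0317, 0.00906, 0.0226 and 0% of all genes, and the numbers with an unadjusted p under 0.05 were 0, 0, 0 and 1. That gene was Lcn2 under simvastatin. It read 7.72, 8.18 and 6.51 in HCD+Sim, against 6.24, 5.99 and 5.72 in HCD and 7.07, 7.20 and 6.11 in Control. The difference from HCD was 1.49 ± 0.61 (log2, SE) with an adjusted p of 0.764. Array C was the lowest for Lcn2 in every brain group, Control and HCD included. From arrays A and B, Lcn2 was DE in brain HCD+Sim against HCD (1.83, adjusted p = 0.000109), 1 of 10 beside 0.0362% of all genes. It was then also lower in HCD than in Control (-1.02, adjusted p = 0.00369), 1 of 10 beside 0.938%.

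**Figure D5:**
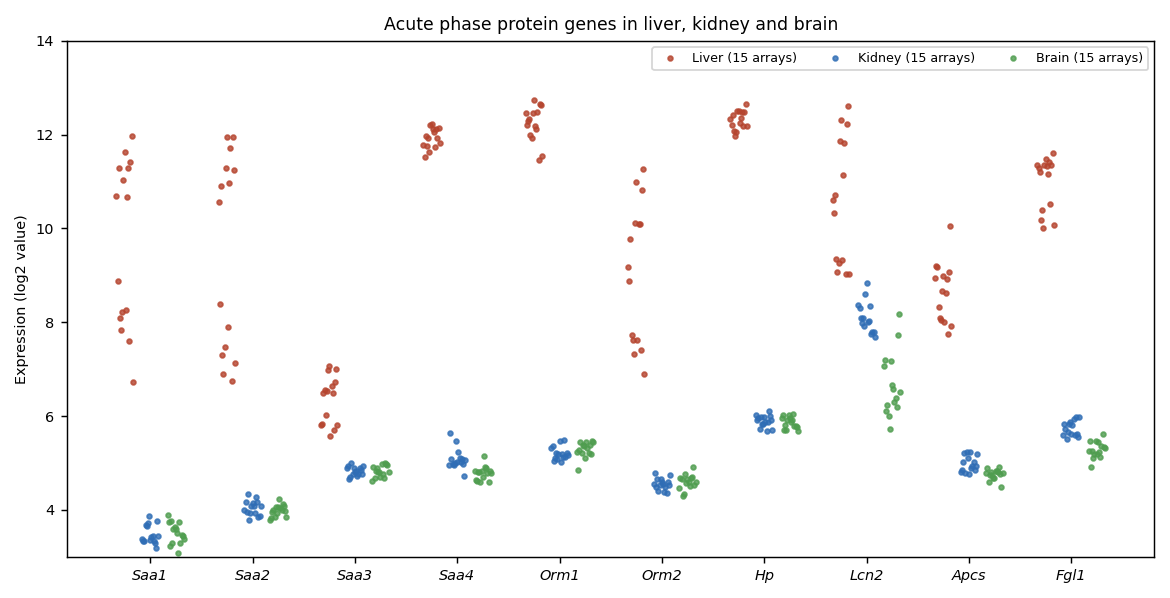
The log2 value (vertical axis) of each gene (horizontal axis) is shown in the 15 arrays each of liver, kidney and brain, with a point for an array. Liver points of Saa1, Saa2, Orm2 and Lcn2 spread over 3.58 to 5.26 log2 units, while kidney values of Saa1 span 0.68; Lcn2 is the gene with kidney values (7.69 to 8.84) far above the others.

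Whether liver and kidney responded differently was tested as the difference of the 2 responses. For all genes but Lcn2 the kidney values lay below every array median, and whether they are above background was not analysed. A kidney response of these genes may not be measurable, and the contrast would then restate the liver difference. By limma 0 of 10 genes were DE with all arrays for HCD against Control, Gl-1, Gl-2 and simvastatin, beside 0.149, 0.222, 0.326 and 0.254% of all genes, and 4, 5, 2 and 6 had an unadjusted p under 0.05. With arrays A and B only, 2, 5, 4 and 6 were DE, beside 0.385, 0.322, 0.417 and 0.516%.

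Over the 15 liver arrays most of these genes moved together. The Pearson correlation was 0.98 for Orm2 with Lcn2, 0.97 for Saa1 with Saa2, 0.97 for Saa1 with Orm2 and 0.95 for Saa2 with Lcn2. Saa4 had its highest correlation with Hp, at 0.50, and its lowest with Apcs, at 0.07. Among the 50 genes most like Lcn2 in the whole table, 8 were of these 10, as for Orm2, while it was 7 for Saa1, Saa2, Orm1 and Fgl1, 6 for Hp, 4 for Apcs, 3 for Saa3 and 0 for Saa4. The 15 arrays include the 5 arrays C, which by the methods are mixes of A and B, and all share normalization. The low arrays C of the treated livers are among them, so these are descriptions.

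The genes outside the 10 with the most similar liver pattern included further plasma proteins. They were Serpina10, a protease inhibitor (0.89), Snf8 (0.87) and Ifi30 (0.87) for Saa1, and Mpeg1 (0.89), Serpina10 (0.87) and Treml4 (0.87) for Saa2. Hpx, the haem carrier haemopexin, was nearest to Orm2 and to Lcn2 (0.90 each), followed by Serpina10 (0.89) and Mpeg1 (0.86) for Orm2 and by Mpeg1 (0.88) and Cd5l (0.87) for Lcn2. Mpeg1 and Cd5l are macrophage genes. For Hp they were Lrg1, a secreted glycoprotein of the acute phase (0.95), Slc13a5 (0.92) and Clec12a (0.90).

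For Apcs the nearest were Mmd2 (0.91), Itih4 (0.91) and Dnajc12 (0.90), and for Fgl1 Moxd1 (0.92), Itih3 (0.88) and Dio1 (0.86). Itih3 and Itih4 encode heavy chains of inter-alpha-trypsin inhibitors. For Saa3 they were Rpn2 (0.92), Snora62 (0.84) and Orm3 (0.84), for Orm1 Prg4 (0.83), Ptpn1 (0.81) and Chrm3 (0.81), and for Saa4 Gm10852 (0.82), Gdap10 (0.79) and Pnet-ps (0.78).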

How the data were processed

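Array values were used as deposited by the authors, on the log2 scale. The authors corrected signal intensities for background by RMA, normalized them by quantiles and adjusted batches with ComBat. Where a gene had several probe sets, they retained the one of widest interquartile range. The batches, and a genome build, are not given in the sources used here. Tissue, diet and pool letter came from titles and characteristics. The free-text descriptions of liver and kidney arrays name brain. ComBat and quantile steps tie arrays to each other, and the number of arrays limits precision.

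limma 3.58.1 in R 4.3.3 fitted 15 group means to all 45 arrays (residual degrees of freedom 30), with Benjamini-Hochberg adjustment over 22080 genes in each comparison. An exact two-sided permutation test of 3 against 3 arrays cannot give a p under 0.1 and was not used. The fit was tested on simulated data with independent arrays, so that test does not cover arrays that share RNA. The members, lists and motifs were chosen with earlier results of these data known. Named genes were the 10 members, the DE genes of the acute phase and signalling lists with Il6, Il1b, Stat3, Socs3, Crp, Alb and Hamp, the markers needed, and the 3 genes most like each member. Promoters are RefSeq's on GRCm38.p6, aligned with Biopython 1.88. Alternatives are given in the closing section. The fit without array C of the 3 treated livers was added after seeing the data.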

Additional observations from a re-analysis of the deposited data

How the results depend on the processing

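With arrays A and B only, the number of the 10 genes called DE in liver rose from 1 to 6 for HCD against Control, from 2 to 6 for Gl-1, from 1 to 5 for Gl-2 and from 1 to 6 for simvastatin against HCD. It rose from 0 to 5, 4 and 5 for Gl-1, Gl-2 and simvastatin against Control, to 2 for Gl-2 against simvastatin, and in brain to 1 for HCD against Control and 1 for simvastatin. For the liver response minus the kidney response it rose from 0 to 2, 5, 4 and 6 (HCD, Gl-1, Gl-2, simvastatin). Leaving out only array C of the 3 treated livers gave 6, 5, 5 and 6 for the first 4 liver comparisons, 4, 2 and 5 against Control, 2 for Gl-2 against simvastatin, 1 for simvastatin in brain, and 5, 5, 5 and 6 for the differences between tissues. Fits on the tissue's arrays alone called 0 in each of the first 4 liver comparisons, and fits on the compared groups alone 4, 1, 0 and 0, with 4 (HCD) and 1 (Gl-1) for the differences between tissues. Trend and robust moderation gave 1, 0 and 0 for Gl-1, Gl-2 and simvastatin, and 0 for kidney against brain on the Control diet. Quantile normalization within tissue gave 0 for simvastatin, and the adjusted p without a fold threshold 3 for kidney against brain.

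Leaving out each array in turn gave 1 to 5 genes for Gl-1 against HCD, 0 to 3 for Gl-2 and 0 to 6 for simvastatin, the highest in each without array C of the treated group. It gave 0 to 1 for Gl-1 against Control, Gl-1 against simvastatin, Gl-2 against simvastatin, and kidney against brain, and 0 to 6 for the simvastatin difference between tissues, where 6 came without array C of liver HCD+Sim. Each 1 among these liver results came without array C of HCD+Gl-1 (against Control) or of HCD+Sim (between treatments), and the 0 for kidney against brain without array C of brain Control or any kidney Control array. Against Control, the direction reversed for 3 differences that were DE in the alternative fit. With arrays A and B only, the log2 difference was 1.86 for Saa2 and 1.07 for Orm2 under Gl-2, and 1.92 for Saa1 under simvastatin. Without array C of the treated livers they were 1.39, 0.82 and 1.42. Differences that were DE in neither fit changed sign too: without these arrays Saa1 under Gl-2 went from -0.43 to 0.70, and under simvastatin Orm1 from -0.05 to 0.32, Apcs from -0.09 to 0.45 and Fgl1 from -0.27 to 0.20. The fits differ in these arrays and, for a fit on fewer arrays, in the residual degrees of freedom.

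The pool letters as a replicate block gave 2 genes for HCD against Control, 4 for Gl-1, 5 for simvastatin, 0 for kidney against brain and 1 for the Gl-1 difference between tissues. Arrays with a shared letter deviated together (every pair's correlation over 0.1) in 2 of 18 comparisons, Gl-2 against Gl-1 and against simvastatin in liver, where the block changed no call. In the 16 others at least 1 pair had a correlation of 0.1 or less. The correlations of all pairs in the 18 comparisons lay between -0.273 and 0.265.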
